A study of Drosophila melanogaster with 13 samples.

Results

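Oxidative phosphorylation is the set of 4 respiratory complexes and the ATP synthase by which mitochondria turn reduced cofactors into ATP. The genes described here are the 87 of 17737 annotated fruit fly genes whose symbols begin with ND-, UQCR-, COX and a digit, or ATPsyn, or which name a protein of that machinery encoded by mitochondrial DNA. The rule reads symbols alone and no measured value, though it was set with earlier results of these data known. Of the 87, 74 are nuclear genes, 40 of them for complex I, 8 for complex III, 11 for complex IV and 15 for complex V. The other 13 are every protein-coding gene that the rule takes from the mitochondrial genome, 7 for complex I, 1 for complex III, 3 for complex IV and 2 for complex V. Of the 74 nuclear genes, 16 are paralogs named after another member or after another subunit gene, which leaves 58 core nuclear genes.

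The 13 libraries hold RNA of GFP-positive neurons, taken by hand from Drosophila melanogaster brains. For TRH-Gal4 there were 4 cell pools, labelled through a driver named for tryptophan hydroxylase, the enzyme of serotonin synthesis, and these pools carry the numbers 40, 45, 57 and 60 in their labels. The sNPFR-Gal4 group, labelled through a driver named after the short neuropeptide F receptor, held 1 pool and 8 single cells, numbered 1 to 7 and 10. All cells carried GFP under Gal4, and the labels give no age, sex, strain or number of animals. Brains were dissociated for TRH-Gal4 and pinned for sNPFR-Gal4 before sorting, so handling and driver cannot be told apart. Single cells also had more PCR cycles than pools.

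Complex I passes electrons from NADH to ubiquinone, complex III passes them on to cytochrome c, and complex IV passes them to oxygen. The protons these complexes pump drive complex V, the ATP synthase. Each of these 4 complexes is built from nuclear and mitochondrial products, so the messages come from both genomes. Neurons depend heavily on this supply of ATP for ion pumping and synaptic release. Complex II is wholly nuclear and lies outside the symbol rule.

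The TRH pools held 8.72 to 15.6 M reads, the sNPFR pool 56.1 M and the single cells 3.38 to 68.0 M. Levels are CPM, the reads of a gene scaled to the total of its library. Genes at 1 CPM or more numbered 5982 to 7587 across TRH pools, 3147 for the sNPFR pool and 945 to 2127 in the cells. All 8 neuronal markers reached 1 CPM in every pool, and 7 or 8 did in every cell. The 4 serotonergic markers summed to 55955 to 92420 CPM across TRH pools, against 572 CPM for the sNPFR pool and 1.56 to 4790 CPM in the cells. All 4 reached 1 CPM in every TRH pool, but only 1 did in each sNPFR library. In the sNPFR pool and in cell 4, the highest cell, Trh, SerT and Vmat had 0 reads and the sum was Ddc alone. The 9 glial markers summed to 83.4 to 547 CPM across TRH pools, with 3 to 6 of them at 1 CPM, against 1589 CPM for the sNPFR pool, with 3 of them (alrm, Eaat1 and Gs2) at 1 CPM and the defining marker repo at 0. In the single cells the glial sum was 0 to 130 CPM. The 5 hemocyte and basement membrane markers summed to 165 to 418 CPM across TRH pools, 0 for the sNPFR pool and at most 0.313 CPM in a cell. In the TRH pools 1 to 3 of these 5 reached 1 CPM, and NimC1 had 0 reads in every library. The 5 muscle markers summed to 0.228 to 12.9 CPM across TRH pools, 5.90 CPM for the sNPFR pool and 0 to 157 CPM in the cells, and the 4 fat body markers to 0.344 to 50.7, 39.3 and 0 to 53.4 CPM. The part of these other cell types in the results below was not tested.

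In summed levels, the nuclear members took a smaller share of reads in every TRH pool than in the sNPFR pool, while the mitochondrial members took a larger share. The 74 nuclear members together reached 10421, 16057, 18786 and 12392 CPM in TRH pools 40, 45, 57 and 60, against 22806 CPM for the sNPFR pool and 13280 to 26130 CPM in the 8 cells, with a median of 17955 CPM. All 4 TRH pools lay below the sNPFR pool, pools 40 and 60 also lay below every cell, and pools 45 and 57 lay within the range of the cells. The 13 mitochondrial members together reached 7169, 6107, 11011 and 7262 CPM in TRH pools 40, 45, 57 and 60, against 5282 CPM for the sNPFR pool and 2055 to 43208 CPM in the cells, with a median of 6735 CPM. Here all TRH pools lay above the sNPFR pool, and the cells spanned a wider range on both sides. In pools, fewer cells of a type and less RNA per cell cannot be told apart.

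The nuclear to mitochondrial ratio of these sums was 1.45, 2.63, 1.71 and 1.71 in TRH pools 40, 45, 57 and 60. It was 4.32 in the sNPFR pool. In cells 1, 2, 3, 4, 5, 6, 7 and 10 it was 2.38, 2.51, 1.32, 0.472, 3.22, 1.96, 9.49 and 2.57. Every TRH pool lay below the sNPFR pool, and the cells reached both below and above all pools. The mean log2 ratio was 0.87 ± 0.37 (SD, n = 4) across TRH pools, and its difference from the mean of the 2 sNPFR units (the pool, and the 8 cells added together) was -1.05. This value is a description over the members and carries no test. It shrank to -0.48 when each cell was weighted equally and to -0.61 without cell 7, which alone supplied 52.7% of the 129.1 M reads of the cells. Cell 7 had the lowest mitochondrial sum of all 13 libraries and cell 4 the highest, and cells 4 and 3 were the smallest libraries. The ratio was 3.20 to 6.88 for complex I across TRH pools and 0.353 to 0.603 for complex IV in the same pools. These sums run over 40 nuclear and 7 mitochondrial genes for complex I, and 11 and 3 for complex IV. They are not scaled for gene number or length, so the 2 ratios do not compare the complexes. The mitochondrial large ribosomal RNA, which is no member, stood at 8093 to 22426 CPM across TRH pools, 8862 CPM for the sNPFR pool and 1750 to 63023 CPM in the cells, again highest in cell 4.

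**Figure D1:**
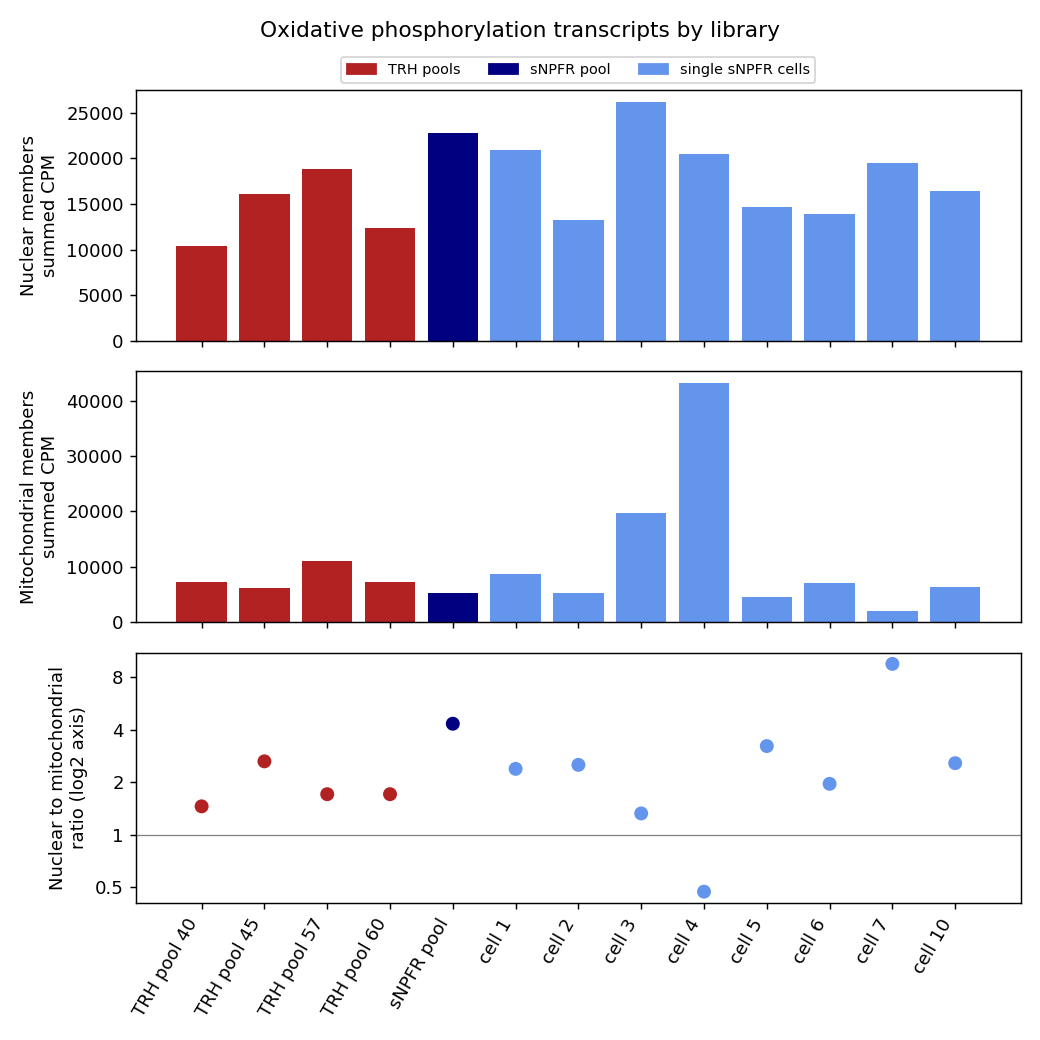
Summed CPM of the 74 nuclear members (top), summed CPM of the 13 mitochondrial members (middle) and their ratio on a log2 axis (bottom) in each of 13 libraries, with TRH pools in red, the sNPFR pool in dark blue and single sNPFR cells in light blue. Bars and points are single libraries without error bars. The ratio of the TRH pools ran from 1.45 to 2.63 and that of the cells from 0.472 in cell 4 to 9.49 in cell 7.

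To ask which members differed between the drivers, the 4 TRH pools were tested against 2 units of sNPFR cells, namely the pool and all 8 cells added together, because the labels name no animals for the cells. Log2 fold changes are TRH minus sNPFR after TMM scaling, and the value after ± is an approximate standard error worked back from edgeR's quasi-likelihood F statistic. A p-value here reflects the spread among these libraries alone, which may be technical, and a p that misses the threshold does not show that levels were alike. Of the 87 members, 71 had enough reads to be tested, 58 nuclear and 13 mitochondrial. Of these, 2 were called higher in sNPFR at a Benjamini-Hochberg adjusted p of 0.05 or less, beside 3.03% of all 7426 tested genes, and 0 were called higher in TRH, beside 10.6% of all tested genes. At an unadjusted p under 0.05 there were 12 members, all nuclear, beside 33.3% of all tested genes. The count of 2 is thus close to the background share, and DESeq2 called 5 members higher in sNPFR, beside 6.21% of all genes, and 3 higher in TRH, beside 34.7%. Against the sNPFR pool alone, 5 members were called higher in sNPFR, beside 7.12%, and 2 higher in TRH, beside 24.0%. Against the summed cells alone, 11 were called higher in sNPFR, beside 9.52%, and TMM with singleton pairing called 6, beside 5.31%. With library totals the count was 0, beside 1.58%, and with cells weighted equally it was 0, beside 1.65%.

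The called genes were ND-39, an accessory subunit of complex I, and UQCR-C1, a core subunit of complex III. ND-39 (FBgn0037001, chromosome 3L, 20492082 to 20497084, plus strand, BDGP6) had 197, 188, 333 and 254 CPM in TRH pools 40, 45, 57 and 60, against 888 CPM for the sNPFR pool and 0 to 1413 CPM in the cells, with a median of 101 CPM. All TRH pools lay below the sNPFR pool and below the summed cells (466 CPM), although 4 single cells held less than every TRH pool. Its log2 fold change was -1.93 ± 0.41 (edgeR adjusted p = 0.0285). UQCR-C1 (FBgn0038271, chromosome 3R, 14890231 to 14892387, plus strand, BDGP6) had 387, 737, 820 and 591 CPM in TRH pools 40, 45, 57 and 60, against 2293 CPM for the sNPFR pool and 0 to 1811 CPM in the cells, with a median of 718 CPM. The TRH pools again lay below both sNPFR units, with 1111 CPM over the summed cells. Its log2 fold change was -1.85 ± 0.40 (edgeR adjusted p = 0.0301). Both calls were lost without TRH pool 45, 60 or 57 or without cell 7 (edgeR adjusted p = 0.0681 to 0.127), and ND-39 was also lost without TRH pool 40 (0.0537). Without pool 45, 60 or 57 only 0.0981%, 0.187% and 0.09% of all tested genes were called higher in sNPFR. That share was 3.05% without cell 7 and 2.19% without pool 40, against 3.03% in the main fit. Both calls were lost too with library totals in place of TMM, with cells weighted equally and with limma-voom (adjusted p = 0.0676 to 0.528).

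Most fold changes were negative for nuclear members and positive for mitochondrial ones. Of 58 tested nuclear members, 50 had a negative fold change, beside 43.3% of all tested genes, and their median was -0.82 against a median of 0.67 for all tested genes. Relative to that median, 54 of 58 nuclear members were lower in TRH. Of the 13 mitochondrial members, 10 had a positive fold change, with a median of 0.56, and 8 of 13 lay below the median of all genes. The background itself depends on which genes are counted: for the 2492 genes that reached 1 CPM in each of the sNPFR units, the median of all genes was -0.98, that of 55 nuclear members -0.83 and that of the 13 mitochondrial members 0.56. These medians describe the lists and were not tested. In CPM, before TMM scaling, the 4 TRH pools lay below both sNPFR units without overlap for 16 of 58 nuclear members, beside 8.11% of all tested genes, and above both for 3, beside 27.3%. The summed cells set this count in part, and without cell 7 it was 12 below, beside 7.93%, and 6 above, beside 27.2%.

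**Figure D2:**
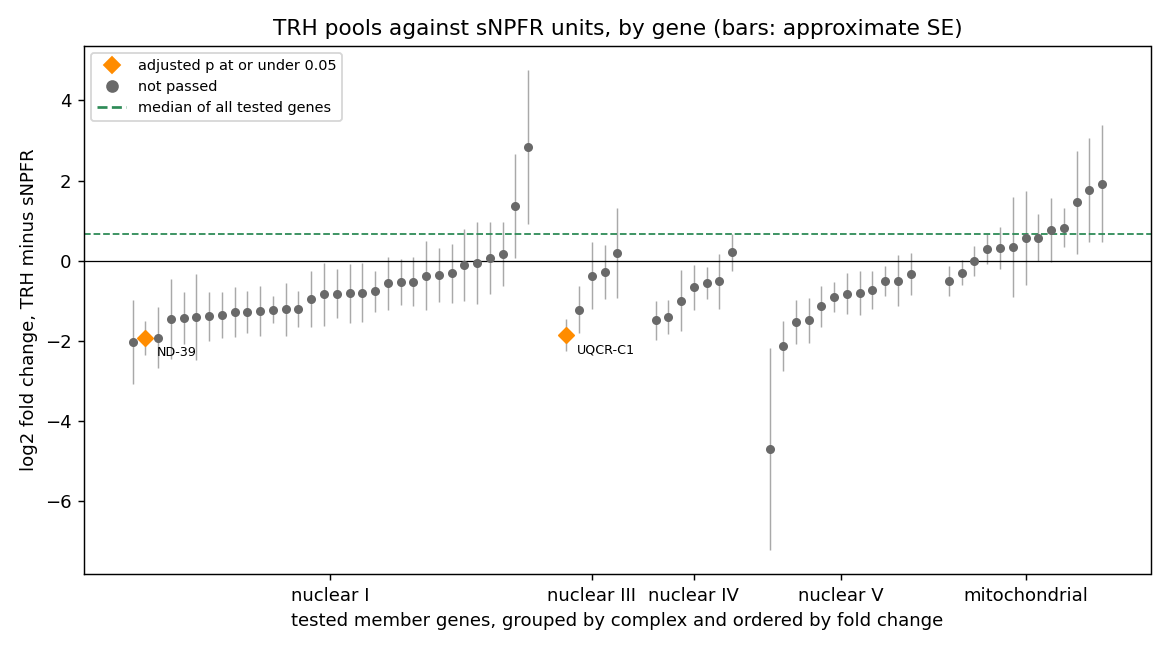
Log2 fold change (TRH minus sNPFR, vertical axis) of each tested member, grouped by complex and genome and ordered by fold change within each group, with bars of 1 approximate standard error. Orange diamonds mark ND-39 and UQCR-C1, and the dashed line is the median of all tested genes at 0.67. Tested members with very few reads summed over all libraries, whose fitted fold change depends on the prior count, are not drawn. Most nuclear members lie below the line at 0.

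Among the nuclear subunits of complex I the median log2 fold change was -0.82 over 33 tested. ND-49, a core subunit near the ubiquinone site, had 425, 496, 501 and 376 CPM in TRH pools 40, 45, 57 and 60, against 827 CPM for the sNPFR pool and 0 to 1143 CPM in the cells, with a median of 14.6 CPM. The TRH pools did not overlap the pool or the summed cells (665 CPM), but the fold change of -1.22 ± 0.33 did not pass (edgeR adjusted p = 0.0559). It passed with singleton pairing, DESeq2 and limma-voom, and without the 2 smallest cells. Without cell 1, 2, 3, 5, 6 or 10 it passed as well (adjusted p = 0.0190 to 0.0487 over all these settings). Its fold change was -1.18 against the pool alone and -1.40 against the summed cells alone. Over all runs without 1 TRH pool or 1 cell it ran from -1.37 to -0.51 (edgeR adjusted p = 0.0430 to 0.607). Without cell 7 the TRH pools overlapped the sNPFR units in CPM. ND-51, the subunit that binds NADH, had 345, 447, 559 and 270 CPM across TRH pools in the same order, 589 CPM for the sNPFR pool and 0 to 1109 CPM in the cells, with a median of 449 CPM, and a fold change of -1.20 ± 0.45 (edgeR adjusted p = 0.122; 0.0454 with the summed cells alone).

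ND-75, the largest core subunit, varied most among cells of the complex I members. It averaged 280 ± 42.4 CPM (SD, n = 4) across TRH pools, against 43.0 CPM for the sNPFR pool and 0 to 5495 CPM in the cells, with a median of 661 CPM. Cells 1 and 2 held 0 reads of it while it was the most abundant nuclear member of cells 3 and 7, with 21.0% and 10.1% of their nuclear sums. The sNPFR pool and cells 1, 2 and 10 lay below every TRH pool and the other 5 cells above, as did the summed cells. The fold change was -2.03 ± 1.06 (edgeR adjusted p = 0.204) with both units, 2.39 with the pool alone (adjusted p = 0.00969) and -3.11 with the summed cells alone (0.00304). ND-42, an accessory subunit noticed after its values were seen, had 210, 264, 390 and 168 CPM in TRH pools 40, 45, 57 and 60, against 0.0713 CPM for the sNPFR pool, which is 4 reads, and 0 reads in 5 of 8 cells, with 454, 434 and 52.7 CPM in cells 2, 3 and 4. Its groups did not overlap as units, and the fold change of 2.83 ± 1.93 did not pass (edgeR adjusted p = 0.334). The most positive fold change of the tested complex I members was that of ND-B8, 7.21, which did not pass (edgeR adjusted p = 0.189). ND-B8 was of very low level, at 1.43 CPM per kb across TRH pools. ND-MLRQ, placed in complex I by its symbol alone, varied least among cells of the complex I members with a mean of 10 CPM or more. It had 104 ± 40.5 CPM (SD, n = 4) across TRH pools and 116 CPM for the sNPFR pool. In the cells it ran from 0.365 to 371 CPM, with a median of 118 CPM.

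**Figure D3:**
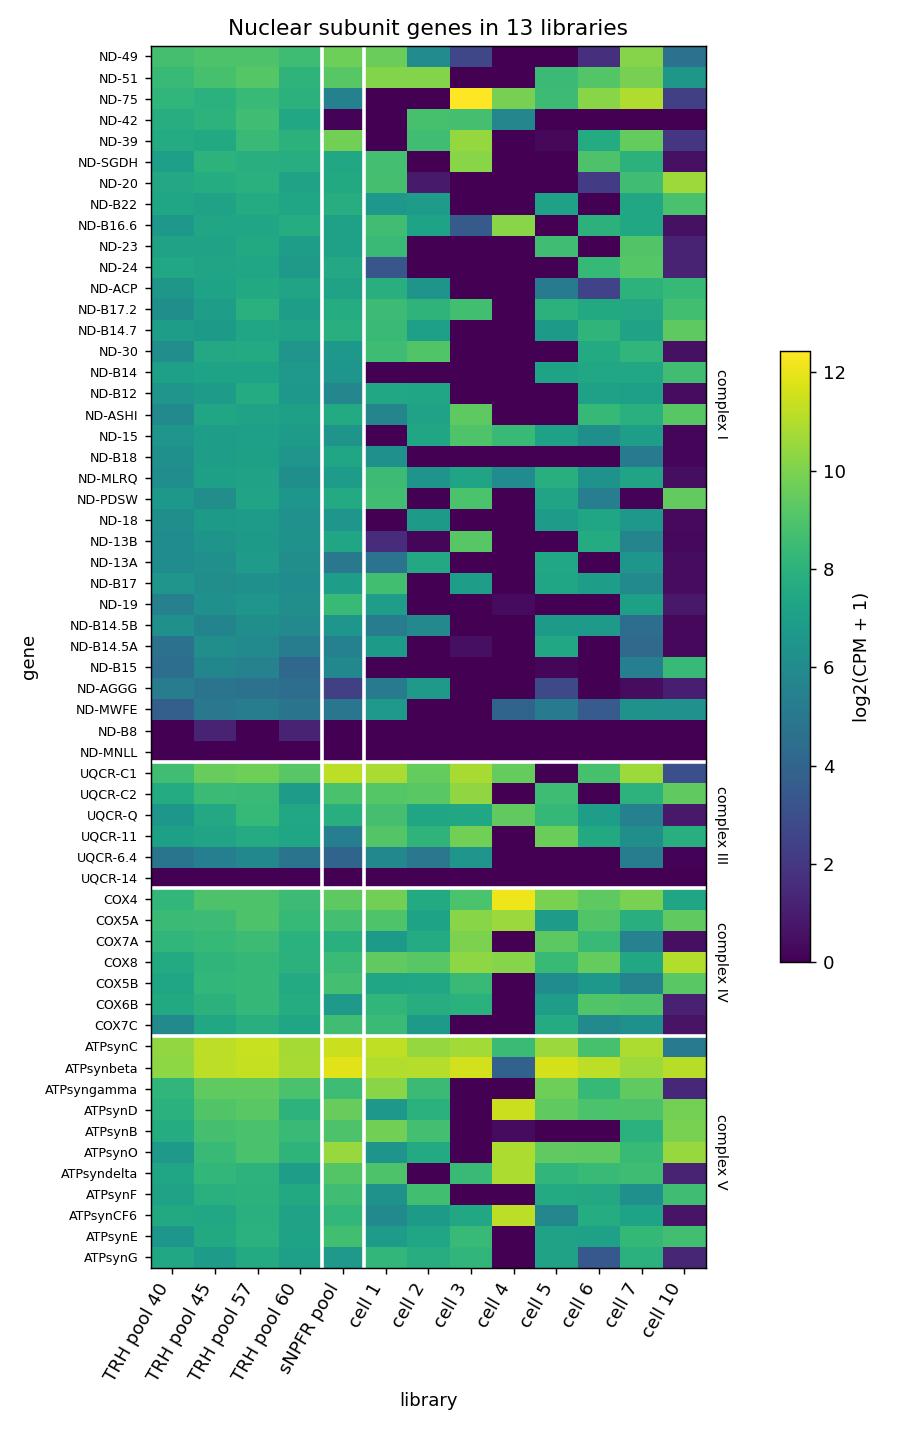
Log2(CPM + 1) of the 58 core nuclear members (rows, by complex) in 13 libraries (columns, TRH pools, sNPFR pool, then single sNPFR cells). The 4 TRH columns look alike, and the cell columns break into dark squares at or near 0 beside bright ones, most of all in cell 4.

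For complex III, with a median of -0.38 over 5 tested members, UQCR-C2, the partner of UQCR-C1 in the core of the complex, had 201, 353, 345 and 112 CPM in TRH pools 40, 45, 57 and 60, against 465 CPM for the sNPFR pool and 0 to 1326 CPM in the cells, with a median of 470 CPM. Its fold change of -1.23 ± 0.59 did not pass (edgeR adjusted p = 0.181). UQCR-Q, a small subunit at the ubiquinone site, stood at 189 ± 92.4 CPM (SD, n = 4) across TRH pools, 227 CPM for the sNPFR pool and 0.781 to 680 CPM in the cells, with overlap. UQCR-6.4 had the most positive fold change of the complex, 0.19 ± 1.12 (edgeR adjusted p = 0.927), with 37.1 ± 13.4 CPM across TRH pools, 15.0 CPM for the sNPFR pool and 0 to 89.6 CPM in the cells. It shares 40.5% of its exon bases with POSH on the other strand, and no source states how strand was treated in counting, so its reads are uncertain.

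For complex IV, with a median of -0.61 over 8 tested members, COX4, a regulatory subunit, had 299, 493, 494 and 368 CPM in TRH pools 40, 45, 57 and 60, against 652 CPM for the sNPFR pool and 163 to 4450 CPM in the cells, with a median of 757 CPM. The TRH pools lay below both sNPFR units, and the fold change was -1.40 ± 0.42 (edgeR adjusted p = 0.0732; 0.0291 with singleton pairing and 0.0190 with the summed cells alone). COX8 had 190, 276, 306 and 253 CPM in the same pools, against 356 CPM for the sNPFR pool and 167 to 2011 CPM in the cells, with a median of 693 CPM and a fold change of -1.49 ± 0.48 (edgeR adjusted p = 0.0932). It passed with singleton pairing, with the summed cells alone and without cell 7 (adjusted p = 0.0113 to 0.0470). COX5A stood at 384 ± 77.8 CPM across TRH pools (SD, n = 4), 414 CPM for the sNPFR pool and 111 to 1479 CPM in the cells, with overlap. COX7A had 290, 316, 364 and 244 CPM in TRH pools 40, 45, 57 and 60, against 238 CPM for the sNPFR pool and 145 CPM over the summed cells, without overlap of these units. Its fold change of 0.21 ± 0.47 did not pass (edgeR adjusted p = 0.799) and turned negative under TMM with singleton pairing (-0.16).

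For complex V, with a median of -0.87 over 12 tested members, 2 subunits led every pool in CPM. Per kb of the longest annotated transcript, ATPsynO (1792 CPM) ranked above ATPsynC (1544 CPM) in the sNPFR pool. ATPsynbeta, which holds the catalytic sites, had 1275, 2361, 2621 and 1802 CPM in TRH pools 40, 45, 57 and 60, against 3735 CPM for the sNPFR pool and 13.3 to 3125 CPM in the cells, with a median of 2130.5 CPM. ATPsynC, which forms the rotating ring in the membrane, had 1361, 2320, 2700 and 1716 CPM in the same TRH pools, against 2771 CPM for the sNPFR pool and 33.8 to 2380 CPM in the cells, with a median of 1473 CPM. Neither passed, with fold changes of -0.92 ± 0.37 (edgeR adjusted p = 0.142) and -0.50 ± 0.37 (adjusted p = 0.384). ATPsynO, which links the stator to the catalytic head, had 104, 343, 469 and 266 CPM in TRH pools 40, 45, 57 and 60, against 1437 CPM for the sNPFR pool and 0 to 1920 CPM in the cells, with a median of 483 CPM. All TRH pools lay below both units, and the fold change was -2.13 ± 0.63 (edgeR adjusted p = 0.0684). It passed with singleton pairing, DESeq2, no filter, the pool alone and without cell 7 (adjusted p = 0.0267 to 0.0491). ATPsyndelta, in the central stalk, had a fold change of -1.54 ± 0.55 (edgeR adjusted p = 0.111) and shares 35.6% of its exon bases with CG2962 on the other strand, so its reads are uncertain. ATPsynB, a stator subunit, varied most among cells of this complex. It had 356 ± 115 CPM (SD, n = 4) across TRH pools, 499 CPM for the sNPFR pool, 0 CPM in cells 3, 5 and 6, and 963 CPM in cell 10.

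The 13 mitochondrial genes ranged widely in reads per length. mt:ATPase8 and mt:ATPase6 lie on the same message, yet averaged 314 and 1118 CPM per kb across TRH pools. The order below thus ranks reads per gene, not separate messages. Levels between genes are compared here as CPM per kb of the longest annotated transcript. By median rank over the 13 libraries, the 3 core subunits of complex IV led, mt:CoIII at rank 1 and mt:CoII and mt:CoI both at rank 2. They were followed by mt:Cyt-b, the electron carrier of complex III, and mt:ATPase6, the proton channel of complex V. Then came mt:ND4 of complex I at rank 6 and mt:ATPase8 of complex V at rank 7. The other complex I genes ran from mt:ND5 at rank 8 to mt:ND6 at rank 12 and mt:ND2 at rank 13. mt:CoIII averaged 1836 CPM per kb across TRH pools, against 922 for the sNPFR pool and 294 to 3639 in 7 of the cells, with 20306 in cell 4. mt:ND2 averaged 33.3 CPM per kb across TRH pools, against 11.5 for the sNPFR pool and 0 to 52.3 in the cells. Neighbours in this order swapped ranks between libraries, with mt:CoIII between 1 and 3, mt:CoI between 1 and 5 and mt:Cyt-b between 1 and 5, so the leading 4 messages are not ordered beyond their spread. Lower in the order, mt:ND3 ranked between 6 and 13, mt:ATPase8 between 6 and 12, and mt:ND1 and mt:ND4L each between 7 and 12, so these neighbours are not ordered beyond their spread either.

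Between drivers, none of the 13 passed, and at an unadjusted p under 0.05 the count was also 0 with edgeR, beside 33.3% of all tested genes. DESeq2 called mt:ATPase8 and mt:ND6 higher in TRH, beside 34.7% of all tested genes. In CPM, all 4 TRH pools lay above both the sNPFR pool and the summed cells for 11 of 13, all but mt:CoI and mt:CoII, beside 27.3% of all tested genes. That count was 4 with equally weighted cells, beside 25.5%, and 6 without cell 7, beside 27.2%. Here the summed cells lean on cell 7, the library with the lowest mitochondrial sum. mt:CoI had 2091, 1560, 2408 and 1949 CPM in TRH pools 40, 45, 57 and 60, against 1455 CPM for the sNPFR pool and 735 to 17072 CPM in the cells, with a median of 2182 CPM. Its fold change was -0.30 ± 0.31 and it turned positive under the RLE scaling (0.052). mt:CoIII had 1451, 1248, 1747 and 1350 CPM in the same TRH pools, against 727 CPM for the sNPFR pool and 232 to 16022 CPM in the cells, with a median of 1457 CPM. TMM scaling brought its fold change to -0.00 ± 0.38, and library totals gave 0.57.

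mt:CoII stood at 1001 ± 298 CPM across TRH pools (SD, n = 4), 1396 CPM for the sNPFR pool and 293 to 2459 CPM in the cells, with a fold change of -0.50 ± 0.37. It was the mitochondrial message that varied least among cells. mt:Cyt-b stood at 1550 ± 508 CPM across TRH pools, 900 CPM for the sNPFR pool and 250 to 8096 CPM in the cells, with a fold change of 0.30 ± 0.38. mt:ATPase6 had 647, 549, 1189 and 635 CPM in TRH pools 40, 45, 57 and 60, against 253 CPM for the sNPFR pool and 131 to 2285 CPM in the cells, with a fold change of 0.83 ± 0.50. mt:ATPase8, which lies on the same message and overlaps mt:ATPase6 by a few bases, had 36.2, 30.0, 106 and 30.7 CPM in these pools, against 6.40 CPM for the sNPFR pool and 0.0521 to 111 CPM in the cells. Its fold change was 1.76 ± 1.29.

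The complex I messages of mitochondrial DNA had positive fold changes with wide errors. mt:ND1 stood at 120 ± 46.6 CPM across TRH pools (SD, n = 4), 61.4 CPM for the sNPFR pool and 0 to 264 CPM in the cells (0.76 ± 0.80). mt:ND2 stood at 34.1 ± 22.9 CPM across TRH pools, 11.7 CPM for the sNPFR pool and 0 to 53.6 CPM in the cells (1.46 ± 1.29). mt:ND6 stood at 21.1 ± 14.9 CPM across TRH pools, 4.21 CPM for the sNPFR pool and 0 to 12.7 CPM in the cells (1.92 ± 1.46). In each of these 3 TRH pool 57 was the highest library of its group, and the groups overlapped in the range of the cells except for mt:ND6, where all cells lay below the lowest TRH pool at 13.4 CPM. mt:ND5 stood at 318 ± 149 CPM across TRH pools, 166 CPM for the sNPFR pool and 8.53 to 897 CPM in the cells (0.57 ± 0.59). mt:ND4 stood at 526 ± 239 CPM across TRH pools, 268 CPM for the sNPFR pool and 184 to 1303 CPM in the cells (0.31 ± 0.53). mt:ND4L stood at 23.4 ± 13.8 CPM across TRH pools, 12.3 CPM for the sNPFR pool and 5.09 to 54.7 CPM in the cells (0.35 ± 1.25). mt:ND3 varied most among cells. It stood at 37.2 ± 24.0 CPM across TRH pools, 20.5 CPM for the sNPFR pool, 441 CPM in cell 4 and 0 reads in cells 1, 2 and 3 (0.56 ± 1.17).

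**Figure D4:**
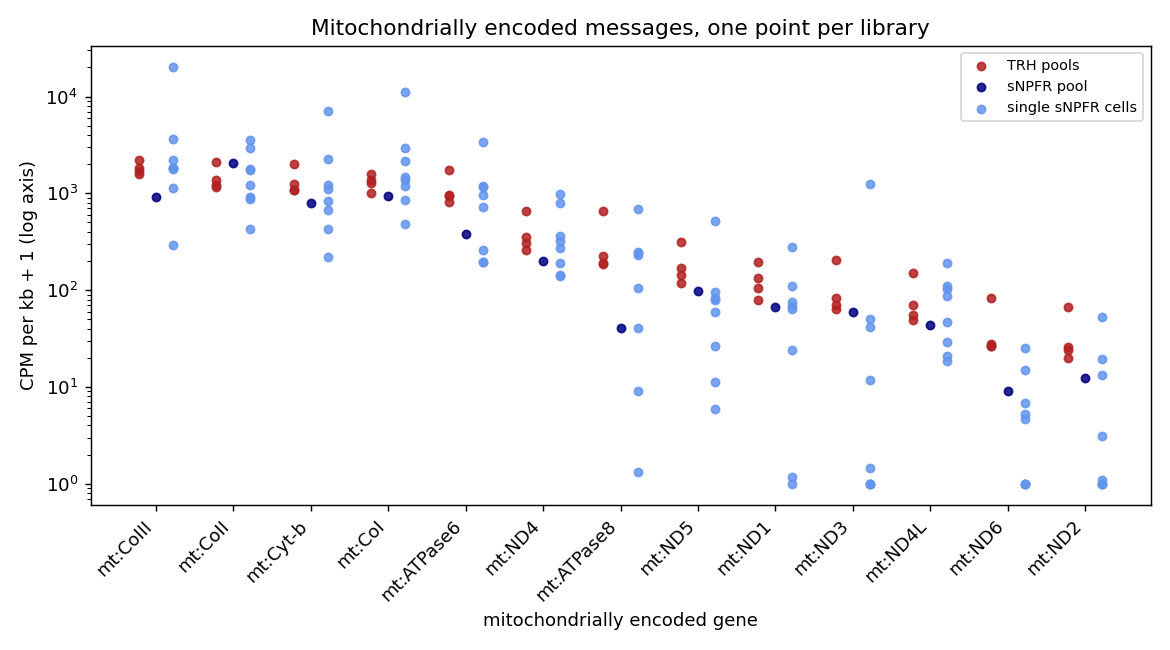
CPM per kb of transcript, plus 1, on a log axis for the 13 mitochondrially encoded genes, 1 point per library. TRH pools are in red, the sNPFR pool in dark blue and single sNPFR cells in light blue. Most libraries have the complex IV and cytochrome b messages among their highest and mt:ND2 among their lowest, and the cells spread widest.

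In single cells the nuclear subunits were found in a patchy way that the pools did not show. Of the 58 core nuclear members, 55 to 56 reached 1 CPM across TRH pools and 54 in the sNPFR pool. Cells 1, 2, 3, 4, 5, 6, 7 and 10 reached 48, 40, 30, 17, 38, 43, 52 and 35. Only COX4, COX5A, COX8, ATPsynC and ATPsynbeta were at 1 CPM in all 8 cells, 5 of 58, beside 4.6% of the 4673 genes at 1 CPM in any cell. Of the 58, 21 reached it in 4 cells or fewer, and these include ND-B8, ND-MNLL and UQCR-14, which reached it in none. The 58 thus hold genes seen in no cell, which the 4673 do not. No background share was taken for the count of 21. The SD of log2(CPM + 1) had a median over the core members of 0.42 among the TRH pools and 3.56 among the cells. For the mitochondrial members it was 0.58 among the TRH pools and 1.52 among the cells, and 8 of 13 were at 1 CPM in all 8 cells. With every library thinned to 3.38 M reads, members with 1 read or more numbered 55 to 56 across TRH pools, 55 for the sNPFR pool and 19 to 53 in the cells. Counts of 0 in a cell do not show that the gene is silent there.

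The order of the core nuclear members per kb was shared among the pools and much less among the cells. Spearman's rho across 56 core genes (ND-MNLL and UQCR-14, at 0 reads in every library, left out), a description over genes that share each library, was 0.846 to 0.961 between TRH pools and 0.669 to 0.790 between a TRH pool and the sNPFR pool. It was 0.255 to 0.587 between a cell and the sNPFR pool and 0.0945 to 0.494 between cells. The 3 largest members held 29.4% to 33.7% of the nuclear sum across TRH pools, 38.6% in the sNPFR pool, and 27.8% to 46.7% in the cells, so a few genes made up a large share in every library. In CPM, the leading gene was ATPsynC or ATPsynbeta in every pool, and COX4 led in cell 4 with 21.8%.

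Partner subunits that the assembled complex needs in fixed numbers were chosen for display after their values were seen. In the F1 head of complex V, alpha subunits, encoded by blw, alternate with beta subunits. Per kb, blw stood at 0.631 to 0.865 of ATPsynbeta across TRH pools and 0.705 in the sNPFR pool. In cells 1, 2, 6 and 7 this ratio was 1.19, 1.10, 1.47 and 0.943, in cells 3, 5 and 10 it was 0.157, 0.441 and 0.0544, and in cell 4 it was 319, from 4668 CPM of blw and 13.3 CPM of ATPsynbeta. The pools held the 2 messages in a narrow ratio, and all 8 cells lay outside the range of the TRH pools, by the least in cell 7 and by the most in cell 4. For UQCR-C1 over UQCR-C2 the ratio per kb was 1.99 to 5.45 across TRH pools and 5.10 in the sNPFR pool, while UQCR-C2 had 0 reads in cells 4 and 6, UQCR-C1 had 0 reads in cell 5, and the other 5 cells ran from 0.0111 to 6.24. For ND-75 over ND-49 the pools differed too, at 0.300 to 0.422 per kb across TRH pools and 0.0320 for the sNPFR pool, and the cells ran from 0 in cells 1 and 2 to 645 in cell 3, with 0 reads of ND-49 in cells 4 and 5. The mitochondrial pair mt:CoI over mt:CoII was closer, at 0.747 to 1.13 per kb across TRH pools, 0.465 for the sNPFR pool, 0.822 to 1.35 in 7 of the cells and 3.10 in cell 4. Across the 2 genomes within complex IV, mt:CoI over COX4 was 2.29 to 5.07 per kb across TRH pools, 1.62 for the sNPFR pool and 0.543 to 10.1 in the cells.

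**Figure D5:**
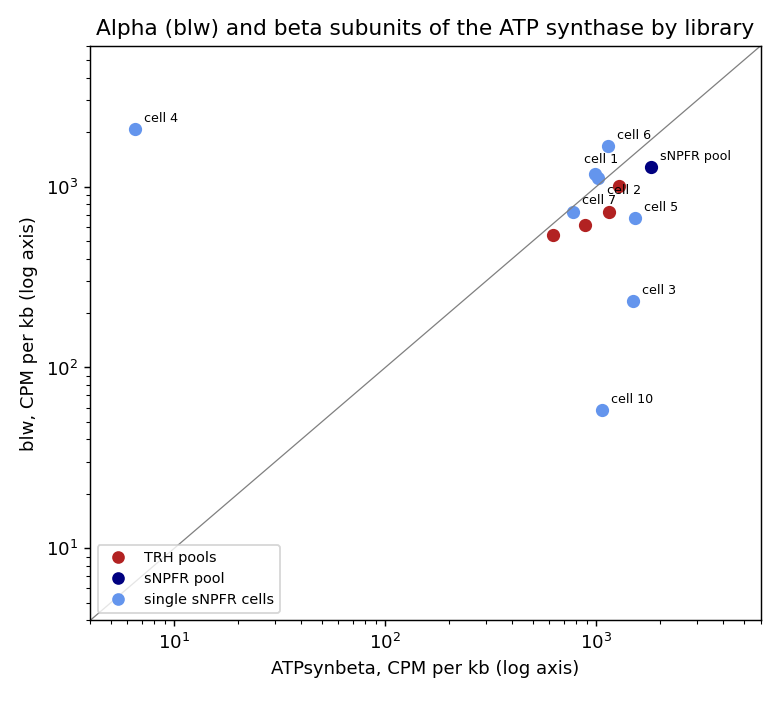
CPM per kb of blw (alpha subunit, vertical log axis) against ATPsynbeta (beta subunit, horizontal log axis) of the ATP synthase in each library, with the line of equal level. The 4 TRH pools in red and the sNPFR pool lie just under the line, cells 3 and 10 lie far under it and cell 4 far above it.

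Of the 16 paralogs, which carry an L in their symbols and in flies are often expressed in the testis, 10 had 0 reads in all 13 libraries and 4 reached 1 CPM in any library. COX4L peaked at 1.60 CPM, in TRH pool 45, and had 0 reads in every sNPFR library. Its fold change of 7.25, the most positive of complex IV, did not pass (edgeR adjusted p = 0.185). ND-51L2 had 113 reads in TRH pool 60, 11.8 CPM, and 0 reads elsewhere. ND-51L1 had 440 reads in cell 10, 22.9 CPM, and 0 reads elsewhere. ATPsynbetaL reached 3.24 CPM in TRH pool 60 and at most 0.229 CPM in the other TRH pools, against 10.2 CPM for the sNPFR pool and 47.9, 13 and 66.1 CPM in cells 3, 7 and 10. The other 5 cells held at most 0.108 CPM of it, and its fold change of -4.70 ± 2.53 did not pass (edgeR adjusted p = 0.221; 0.0480 with limma-voom). ND-MNLL and UQCR-14 had 0 reads in all libraries as well. All exon bases of ND-MNLL lie within CG45089 on the same strand, and those of UQCR-14 within CG32576 on the other strand, which itself had 84 to 237 reads across TRH pools and 595 in the sNPFR pool. The paralog COX5BL, also at 0 reads throughout, lies wholly within Trmt6 on the other strand. How reads of overlapping genes were assigned is not stated, and its part in these zeros was not tested. In all, 36 of the 87 members share some exon bases with another gene and 13 share over 10%.

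Genes that work beside the members were read in the same fit, as counts beside the background of 3.03% higher in sNPFR and 10.6% higher in TRH. Of 12 tested structural subunits outside the symbol rule, which include complex II, blw and cytochrome c, 1 was called higher in sNPFR and 0 higher in TRH. That gene was levy, the COX6A subunit of complex IV, at 263, 308, 456 and 272 CPM in TRH pools 40, 45, 57 and 60, against 989 CPM for the sNPFR pool and 470 CPM over the summed cells (-1.60 ± 0.42, edgeR adjusted p = 0.0495). Of 3 tested carriers, sesB, the adenine nucleotide translocase that exchanges ADP for ATP, was called higher in sNPFR, at 1062, 1220, 1217 and 885 CPM in the same TRH pools, against 1930 CPM for the sNPFR pool and 1388 CPM over the summed cells (-1.08 ± 0.28, edgeR adjusted p = 0.0475). Both calls were lost without each of the 4 TRH pools in turn (edgeR adjusted p = 0.0789 to 0.125), and levy also without cell 4 (0.0581) or 10 (0.129). Without a TRH pool, fewer genes of any kind were called higher in sNPFR, as given above. With RLE scaling, library totals, no filter, the summed cells alone or cells weighted equally both were lost as well (adjusted p = 0.0549 to 0.173). levy was lost with limma-voom (0.284), with mitochondrial RNA left out of the scaling (0.0501) and without the 2 smallest cells (0.0524), and sesB with DESeq2 (0.0783) and with the pool alone (0.0530).

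Of 17 tested genes of pyruvate dehydrogenase and the citric acid cycle, 1 was called higher in sNPFR and 0 higher in TRH. CG5214, a succinyltransferase of the 2-oxoglutarate dehydrogenase complex, averaged 228 ± 87.8 CPM (SD, n = 4) across TRH pools, against 641 CPM for the sNPFR pool and 621 CPM over the summed cells (-1.97 ± 0.48, edgeR adjusted p = 0.0397). Of 12 tested glycolysis genes 0 passed. Hex-A, a hexokinase, averaged 450 ± 131 CPM (SD, n = 4) across TRH pools, against 1056 CPM for the sNPFR pool and 268 CPM over the summed cells (edgeR adjusted p = 0.263; 0.0459 with the pool alone). Ldh, lactate dehydrogenase, had 0 to 72.7 CPM across TRH pools and 0 reads in every sNPFR library (edgeR adjusted p = 0.106, and 7.99e-05 with DESeq2). Ldh entered the test through its TRH reads alone, so these p-values are no independent support either. Of 8 tested mitochondrial chaperones and protective enzymes, Hsc70-5, the Hsp70 of the mitochondrial matrix, was called higher in sNPFR, with 152 ± 28.2 CPM (SD, n = 4) across TRH pools, against 525 CPM for the sNPFR pool and 343 CPM over the summed cells (-1.98 ± 0.45, edgeR adjusted p = 0.0333).

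The genes called higher in TRH were of low level and nearly absent from the sNPFR libraries. They entered the test through their TRH reads alone, so the p-values below are no independent support for a difference. Pink1, a kinase of mitochondrial quality control, averaged 79.6 ± 38.0 CPM (SD, n = 4) across TRH pools, with 2 reads for the sNPFR pool and 0 in the cells (edgeR adjusted p = 0.0259). Of 8 tested genes of mitochondrial DNA upkeep and expression, TFAM, which packages mitochondrial DNA and aids its transcription, was the 1 call, at 27.1, 20.3, 29.9 and 32.5 CPM in TRH pools 40, 45, 57 and 60 and 0 reads for the sNPFR pool and all 8 cells (edgeR adjusted p = 0.0238). Of 6 tested nuclear regulators, Ets97D, an ETS factor of mitochondrial gene programmes, averaged 38.2 ± 24.6 CPM across TRH pools (edgeR adjusted p = 0.0266) and ERR, a nuclear receptor of energy metabolism, 20.9 ± 13.3 CPM (adjusted p = 0.0315), each SD over 4 pools, and both had 0 reads in every sNPFR library. Of 72 tested mitochondrial ribosomal protein genes, mRpL24, mRpL3, mRpS2, mRpL15, mRpL36 and mRpS10 were called higher in TRH, 6 of 72, which is under the background of 10.6%. Their means across TRH pools ran from 19.4 ± 7.50 CPM for mRpS10 to 45.7 ± 6.99 CPM for mRpL24 (SD, n = 4), with 0 reads in every sNPFR library. The sNPFR libraries held fewer genes at 1 CPM than the TRH pools, as given above, and the part of that difference in these calls was not tested. CG5214 and Hsc70-5 lost their calls without each of the 4 TRH pools in turn (edgeR adjusted p = 0.0632 to 0.103) and with RLE scaling, library totals or no filter (0.0532 to 0.0829), and CG5214 also with limma-voom (0.110) and with cells weighted equally (0.0746). The calls higher in TRH were lost without pool 45, 57 or 60 (0.0655 to 0.0839), and mRpS10 also with no filter (0.0519). Without pool 45, 57 or 60 only 0.322%, 0.15% and 0.373% of all tested genes were called higher in TRH.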

How the data were processed

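The deposited count table lists raw reads of 17737 genes, not normalized. The submitters' processing notes name STAR, edgeR and BDGP6 without versions or roles. How reads were counted (tool, annotation, strand) is not given in the sources used here. Protocols name SMART-Seq v4 and Nextera XT, which mark neither strand nor molecules, so PCR copies count as reads. The deposited normalized table was not used, and 1 column matching no sample was not used. CPM used library totals. A count of 0 allows up to 3 reads (0.0535 CPM in the sNPFR pool), counting error only. Lengths, coordinates and overlaps came from the BDGP6 annotation of Ensembl release 115, which held all 87 members.

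Comparison of 4 TRH pools with 2 sNPFR units used the quasi-likelihood test of edgeR 4.0.16 (R 4.3.3), with TMM scaling, the filterByExpr filter and 4 residual degrees of freedom. P-values were adjusted by Benjamini-Hochberg over all tested genes (threshold 0.05), and the procedure was tested on simulated data, where most of the changed genes were not called and no unchanged gene was. Alternatives used DESeq2 1.42.0, limma 3.58.1 (voom), other scalings, filters and units, and each pool or cell left out. Sums and figures used Python 3.11.15, numpy 2.4.6, pandas 2.3.3, scipy 1.17.1 and matplotlib 3.10.9.

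Members and lists were chosen with earlier results of these data known. Named genes are all mitochondrial members, per nuclear complex the 3 highest, the 2 with the smallest p, the extremes of fold change and of spread over cells, paralogs at 1 CPM, and per list the genes past the threshold or else the 2 with the smallest p. ND-42, blw and the partner pairs were named after their values were seen.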

Additional observations from a re-analysis of the deposited data

Results flagged for a closer look

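Within groups of 4 to 10 libraries, 1 library stood apart from the others by Dixon's ratio on the log2(CPM + 1) scale for 10 results, out of 39 genes looked at in the TRH pools and in the cells. For unselected, normally distributed values chance flags about 1 in 20 groups. Some of these genes were named for their level, spread or fold change in these data, so that rate does not carry over. Among the TRH pools, the highest was pool 60 for ATPsynbetaL (3.24 CPM) and ND-51L2 (11.8 CPM), and pool 57 for mt:ATPase8 (106 CPM) and mt:ND6 (43.4 CPM). Among the single sNPFR cells, cell 10 was the lowest for ATPsynC (33.8 CPM), ND-MLRQ (0.365 CPM) and UQCR-Q (0.781 CPM) and the highest for ND-51L1 (22.9 CPM). Cell 3 was the lowest for ATPsynO (0 CPM) and cell 4 the lowest for ATPsynbeta (13.3 CPM).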

How the results depend on the processing

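No paired analysis was possible because the groups share no replicate numbers. The median log2 fold change of nuclear members kept its negative sign under every alternative run, at -0.51 with RLE, -1.16 with TMM and singleton pairing, -0.33 with library totals, -0.51 with DESeq2 and -0.43 with cells weighted equally, where the medians of all genes were 1.05, 0.41, 1.28, 1.05 and 0.89. The count higher in sNPFR was 6 with singleton pairing, 0 with library totals, 5 with DESeq2, 5 with the pool alone, 11 with the summed cells alone and 0 with cells weighted equally. The count higher in TRH was 3 with DESeq2 (mt:ATPase8, mt:ND6 and ND-AGGG) and 2 with the pool alone (ND-75 and ND-42). The log2 difference of the ratio was -0.48 with cells weighted equally, and scaling does not enter it. Leaving out 1 library gave 0 to 3 members higher in sNPFR, 0 to 0 higher in TRH, nuclear medians of -0.92 to -0.65, mitochondrial medians of 0.08 to 0.79 and ratio differences of -1.22 to -0.61. Over all genes, leaving out TRH pool 45, 60 or 57 left 23, 26 or 10 genes higher in TRH, and these fits have 1 residual degree of freedom fewer.

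Some fold changes changed sign, and the cause was not tested. mt:CoI became 0.052 with RLE, 0.26 with library totals, 0.052 with DESeq2 and 0.15 with the pool alone. mt:CoIII became 0.36 with RLE, 0.57 with library totals, 0.0019 with mitochondrial RNA left out of the scaling, 0.36 with DESeq2, 0.031 without a filter, 0.10 with the 10 CPM filter, 0.68 with the pool alone, and 0.39 without the 2 smallest cells, an alternative chosen after seeing the data. COX7A became -0.16, UQCR-6.4 -0.075 and mt:Cyt-b -0.022 with singleton pairing, and UQCR-Q 0.14 with library totals. ND-75 became 2.39 with the pool alone. With the summed cells alone UQCR-6.4 became -0.45, mt:ND4 -0.11 and mt:ND4L -0.011, and mt:ND3 became -0.16 with cells weighted equally. Leaving out 1 TRH pool or 1 cell gave -0.63 to 0.35 for mt:CoIII, -0.20 to 0.33 for COX7A and -0.012 to 0.64 for UQCR-6.4. It gave -0.19 to 0.54 for mt:Cyt-b, -0.00044 to 0.52 for mt:ND4 and -0.090 to 0.56 for mt:ND4L. Libraries ran from 3.38 M reads in cell 4 to 68.0 M in cell 7, so a count of 0 bounds a level less tightly in cell 4.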
